A study of Mus musculus with 20 samples.

Results

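Left and right atria of control mice were compared in bulk RNA sequencing of whole tissue, 5 left and 5 right libraries, which are 10 of the 20 libraries of the series. The control mice were wild-type, adult, female and 8 to 12 weeks old. The other 10 libraries, 5 left and 5 right atria, came from mice heterozygous for a Tbx5 G125R missense allele that had been made with CRISPR-Cas9, and they enter here only where the difference between the atria was set against that in controls. According to the study, the right atrium samples included the sinoatrial node. The libraries were chosen by their labels alone, as control left and control right atrium, and the labels number them 1 to 5 within a group without saying which animal each came from, so a p-value measures a difference against the spread between these libraries.

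The atria arise on the left and the right of the early heart, and the side of each is set during development downstream of the Nodal pathway, a signal of the left side of the embryo. Bmp10, a secreted ligand of the bone morphogenetic protein (BMP) family made by atrial muscle, is known as a right atrial gene in the adult mouse. Tbx5, the gene altered in the mutants, encodes a factor with a T-box DNA-binding domain that both atria and the conduction system need.

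Depth was 19.1 to 24.8 M reads per left library and 17.5 to 26.0 M per right library, a difference that did not pass the test (exact two-sided permutation p = 0.278). Outside mitochondrial ribosomal RNA, which was left out of the gene tests, it was 10.2 to 16.3 M on the left and 16.2 to 22.4 M on the right. Other properties did. Mitochondrial ribosomal RNA took 24.1% to 46.8% of the reads of a left library and 7.28% to 14.6% of a right one, the other mitochondrial genes 5.98% to 7.18% against 2.24% to 2.60%, and 16119 to 18653 genes had a read on the left against 18963 to 19942 on the right. The read-weighted median GC content of the exons was 43.9% to 45.3% on the left and 48.8% to 49.8% on the right. For each of these 4 properties the groups did not overlap, with an exact permutation p of 0.00794, the smallest that 5 against 5 libraries can give, and an adjusted p of 0.00992 over the 5 properties compared. Left and right atria were deposited as separate tables, and nothing in the labels says whether they were prepared or sequenced together, so a difference between the atria and a difference between how the 2 sets of libraries were made cannot be told apart. Genes of atrial muscle were abundant on both sides: Nppa, the atrial natriuretic peptide gene, lay at 43772 to 119764 normalized reads in left and 57563 to 87599 in right libraries. Nppa was the only one of 5 such genes whose groups overlapped. Myh6, the alpha myosin heavy chain, lay at 63268 to 101816 in left and 484218 to 682148 in right libraries. The atrial myosin light chain genes Myl7, at 9696 to 15720 against 48432 to 72327, and Myl4, at 10268 to 20997 against 81206 to 114502, were also lower on the left. The same held for Sln, the gene of sarcolipin, a regulator of the calcium pump, at 9056 to 14846 against 19563 to 34008.

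Values are normalized reads, the whole reads of a gene divided by a size factor set jointly over the 10 libraries. Differences are left minus right on a scale of log2(normalized reads + 1) from limma, with Benjamini-Hochberg adjustment over all genes tested, with calls made below an adjusted p of 0.05. Of 13683 genes tested, 5529 (40.4%) were called higher in the left and 5903 (43.1%) higher in the right atrium, 83.5% in all, and for 73.7% the left and right libraries did not overlap. When total reads set the scale the split was 4129 left to 7046 right. The median difference of all genes was -0.05, and it was -0.22 with TMM scaling, 0.18 with quantile normalization and -0.53 with total reads.

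The size and direction of the difference followed the GC content of a gene. In the eighth of genes with the lowest GC content, under 42.7%, the median difference was 1.87 and 95.4% of genes were called left. In the eighth with the highest, over 57.1%, the median was -3.001 and 95.4% were called right. Across 13635 genes with a GC value the correlation of the difference with GC content was -0.85, a description across genes, which are not independent replicates and share the same 10 libraries. Every gene was therefore also tested after the trend with GC was removed from each library. One correction used the mean GC content of the exons of a gene. The other used a measure that gives more weight to the most AT-rich 200-base windows of the gene. The second of these was chosen after seeing the data. With the mean GC trend removed 3693 genes (27.1%) were called left and 3587 (26.3%) right, and with the window GC trend removed 3128 (22.9%) and 3075 (22.6%). Of the genes called at first, 1521 were called on the other side under the first correction and 1474 under the second. The SD of the differences over genes was 1.78 without correction, 0.92 with the mean GC trend removed and 0.82 with the window GC trend removed. In all 3 fits the same call was made for 1273 genes (9.34%) on the left and 1686 (12.4%) on the right, and a difference of at least 4-fold in each fit was found for 59 genes (0.433%) on the left and 110 (0.807%) on the right, or for 35 and 62 with a pseudocount of 5 in place of 1. Below, "in all 3 fits" has this meaning, and the 3 values of a gene are given in the order uncorrected, mean GC trend removed, window GC trend removed.

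**Figure D1:**
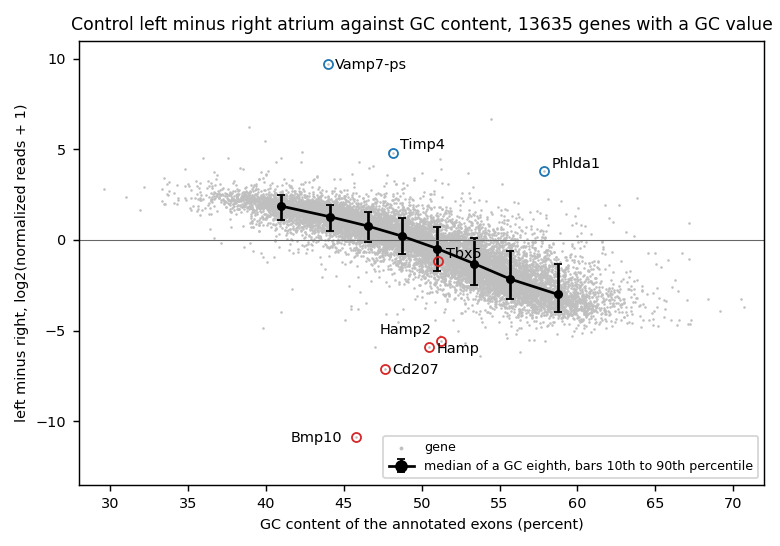
Left minus right difference of each gene, log2(normalized reads + 1), against the GC content of its annotated exons in percent. Grey points are genes, black points are medians of 8 equal bins of genes at the median GC content of the bin, and bars run from the 10th to the 90th percentile. The medians fall from 1.87 to -3.001 across the bins, while Bmp10, Cd207, Hamp and Hamp2 lie far below and Phlda1, Timp4 and Vamp7-ps far above genes of like GC content.

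Bmp10 had the largest difference of any gene named here. Bmp10 (chromosome 6, 87428994 to 87437677, plus strand, mm10) read 36.6, 8.99, 7.11, 21.6 and 11.3 normalized reads in left libraries 1 to 5 and 23427, 31975, 32661, 27638 and 28219 in right libraries 1 to 5. All 5 right libraries stood far above all 5 left ones. The means were 17.1 ± 12.3 (SD, n = 5) and 28784 ± 3726, a difference of -10.86 ± 0.33 (SE) with an adjusted p of 2.20e-10, or 1863-fold on this scale. It was as large with either GC trend removed, at -11.78 and -11.58. The labels of all 10 libraries thus fit the side on which Bmp10 is known to be made. In tissue RNA, fewer cells of a type and less RNA per cell cannot be told apart, for this gene and for those that follow.

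Tbx5 was on in both atria and higher on the right. Tbx5 (chromosome 5, 119832668 to 119885219, plus strand) read 1192, 1873, 1708, 2587 and 2202 in left libraries 1 to 5 and 3444, 3826, 3638, 5030 and 5266 in right libraries 1 to 5. The 2 groups did not overlap, and the mean level was 1912 ± 525 on the left and 4241 ± 843 on the right. The difference of -1.17 ± 0.20 (adjusted p 7.06e-05), or 2.26-fold, fell to -0.67 and -0.72 with the GC trends removed, with adjusted p-values of 0.0105 and 0.00841.

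**Figure D2:**
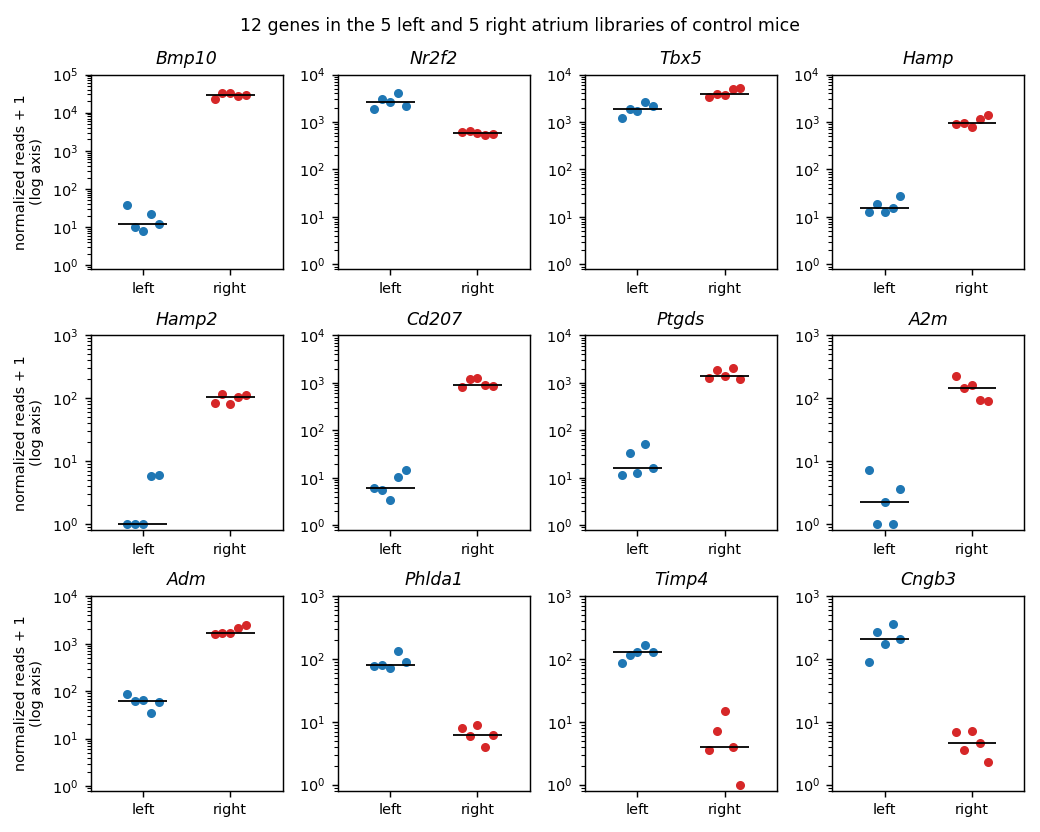
Normalized reads plus 1 on a log axis for 12 genes in the control libraries, a point per library with left in blue and right in red, and the line at the median. In each of the 12 genes the left and right libraries do not overlap. Tbx5 lies at 1192 to 2587 against 3444 to 5266, and Bmp10 at 7.11 to 36.6 against 23427 to 32661. Hamp, Hamp2, Cd207, Ptgds, A2m, Phlda1, Timp4 and Cngb3 were picked by a rule that required no overlap. Over all genes tested, 73.7% did not overlap.

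The list of left-right and chamber identity genes held 22 members, of which 17 were tested. In all 3 fits 6 were higher in the left and 4 in the right atrium, beside 9.34% and 12.4% of all genes. The median difference over the 17 was 0.47, 0.86 and 0.33. Among the left genes were Nr2f2, Nr2f1, Meis2, Sema3c and Cited2, and beside Tbx5 and Bmp10 the right genes were the hepcidin genes Hamp and Hamp2.

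Nr2f2 encodes COUP-TFII, a nuclear receptor of atrial identity. Nr2f2 read 1895, 3017, 2577, 4125 and 2148 in left libraries 1 to 5 and 626, 647, 573, 535 and 553 in right libraries 1 to 5, and the groups did not overlap. Its differences were 2.18, 1.58 and 0.65. Nr2f1, which encodes the related receptor COUP-TFI, was at 396 ± 180 against 151 ± 24.9, and the lowest left library, at 187, lay under the highest right one, at 193. Its differences were 1.27, 2.81 and 2.12. Sema3c, a secreted semaphorin that guides neural crest and axons, spanned 3466 to 9109 in the left and 700 to 990 in the right libraries, with differences of 2.64, 0.92 and 0.89. Meis2, a homeobox cofactor, had differences of 1.19, 0.61 and 0.61, and Cited2, a transcriptional coactivator, had 1.25, 2.64 and 1.41. For Sema3c, Meis2 and Cited2 the left libraries also lay above all right ones.

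The remaining 7 tested members had no call in common. Nkx2-5, a homeobox factor of heart muscle, was 40.3 ± 41.6 on the left and 661 ± 176 on the right, a difference of -4.44 that became -0.33 and 0.03 with the GC trends removed, neither of which passed the test. Its exons have a GC content of 67.3%. Hand2, a basic helix-loop-helix factor of the heart, had values of -0.92, 2.02 and 0.69 and was called on opposite sides, as was Meis1 at 0.55, -0.62 and -0.87. Tbx18, a T-box factor of the sinus venosus, had 0.98, 0.56 and 0.01, of which the last did not pass. Tbx3 and Shox2, factors of the pacemaker region, did not pass uncorrected, at -0.45 (adjusted p 0.0678) and 0.47 (adjusted p 0.0930). With the library number as a block both passed, with adjusted p-values of 0.0301 and 0.0468, but neither kept its direction across the 3 fits. Lefty1, a Nodal antagonist of the left side of the embryo, had few reads, at means of 6.47 and 13.6, and its -1.52 was 1.55 and 1.42 with the trends removed, neither of which passed. Isl1, Cited1, Lefty2, Nodal and Hand1 had means over the 10 libraries under 10 and were not tested, Cited1 with means of 4.31 on the left and 14.8 on the right.

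Markers of the sinoatrial node were of interest because this tissue was part of the right atrium samples. Of 24 listed genes 23 were tested, and in all 3 fits 7 were higher in the right atrium, beside 12.4% of all genes, and 0 in the left. The median difference over the 23 was -0.64, -0.36 and -0.39. The 7 were the voltage-gated calcium channel genes Cacna1d, Cacna1g and Cacna1h, the channel subunit gene Cacna2d2, Rgs6, Cpne5 and Ryr3. Several of these genes are also made in working atrial muscle or in nerve.

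Cacna2d2 encodes an auxiliary subunit of calcium channels. Cacna2d2 read 135, 142, 117, 144 and 99.4 in left libraries 1 to 5 and 2498, 2112, 2139, 2645 and 2448 in right libraries 1 to 5. All right libraries were over 10 times the highest left one. Its differences were -4.21, -2.24 and -2.38. Ryr3, the ryanodine receptor type that is minor in heart muscle, read 128, 192, 212, 175 and 179 in left and 2430, 3237, 2881, 2607 and 1663 in right libraries 1 to 5, again without overlap. Its differences of -3.83, -4.00 and -3.72 hardly moved with the GC correction. Cpne5, which encodes a copine, a membrane-binding protein that responds to calcium, had differences of -4.51, -3.08 and -2.44.

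Cacna1d, the pore of the L-type channel Cav1.3 that opens at low voltages and takes part in pacemaking, was at 67.5 ± 15.1 on the left and 213 ± 32.5 on the right, with differences of -1.65, -1.72 and -1.85. The T-type channel genes went the same way. Cacna1g, which encodes Cav3.1, was at 27.8 ± 5.06 against 403 ± 80.7, with differences of -3.80, -1.09 and -1.34. Cacna1h, which encodes Cav3.2, was close to 0 on the left, at 0.70 ± 0.64, and at 58.8 ± 21.4 on the right, with differences of -5.15, -2.03 and -2.09. Rgs6, which shortens muscarinic signalling by speeding the G protein cycle, had differences of -2.12, -1.90 and -1.73.

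Hcn4, the main pacemaker channel of the node, had no common call. Hcn4 read 0, 4.49, 1.19, 4.81 and 5.03 in left libraries 1 to 5 and 13.5, 75.9, 88.1, 99.4 and 64.5 in right libraries 1 to 5. The groups did not overlap, and right library 1 was far below the other 4. The difference of -4.11 ± 0.61 became -1.43 (adjusted p 0.0673) with the mean GC trend removed and -1.86 (adjusted p 0.0286) with the window GC trend removed. With Tbx3, Shox2 and Tbx18 above, and Isl1 at a mean of 0.90 on the left and 1.36 on the right, none of these transcription factors of the node was called right in all 3 fits.

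The hepcidin genes Hamp and Hamp2, neighbouring and related copies, were among the largest differences. The hepcidin of Hamp is the peptide hormone that closes the iron exporter ferroportin. In liver Hamp is driven by BMP and by cytokine signals through STAT3. The 250 bases upstream of the start of Hamp and Hamp2 (RefSeq, GRCm38.p6) are shown to compare the copies, with that of Bmp10 as the gene of the largest difference. Capitals mark TTCTTGGAA, the letters of a STAT site, GGCGCC, those of a BMP response element, and AGATAA, those of a GATA factor site, each on the strand shown. The stretches are chr7:30944030-30944279 and chr7:30924182-30924431 on the minus strand, and chr6:87428744-87428993 on the plus strand.
Hamp: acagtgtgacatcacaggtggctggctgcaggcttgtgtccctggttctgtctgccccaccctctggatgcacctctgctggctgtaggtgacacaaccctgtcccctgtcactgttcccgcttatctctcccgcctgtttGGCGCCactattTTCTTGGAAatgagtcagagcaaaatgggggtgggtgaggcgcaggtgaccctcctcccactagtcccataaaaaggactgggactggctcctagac
Hamp2: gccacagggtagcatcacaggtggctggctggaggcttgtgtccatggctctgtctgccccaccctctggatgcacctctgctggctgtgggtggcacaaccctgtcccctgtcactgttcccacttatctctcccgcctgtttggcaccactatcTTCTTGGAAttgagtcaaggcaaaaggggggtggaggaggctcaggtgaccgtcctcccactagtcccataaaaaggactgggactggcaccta
Bmp10: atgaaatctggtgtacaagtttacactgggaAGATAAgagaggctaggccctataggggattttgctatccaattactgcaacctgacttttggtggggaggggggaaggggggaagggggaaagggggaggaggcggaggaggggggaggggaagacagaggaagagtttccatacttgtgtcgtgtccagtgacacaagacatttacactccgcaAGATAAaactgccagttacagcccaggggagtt

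The upstream stretches of Hamp and Hamp2 were identical at 227 of 247 aligned positions, 91.9%. Both hold TTCTTGGAA, which is found on either strand in 0.365% of 32851 promoters of the same length, at 97 bases before the start in Hamp and 94 in Hamp2. GGCGCC, present in 9.59% of promoters, stood at 109 bases before the start in Hamp and was not in the stretch of Hamp2. AGATAA, present in 9.99%, occurred on the plus strand of Bmp10 at 219 and 33 bases before its start and on the other strand of Hamp at 128 and of Hamp2 at 125. AGGTGT, the core letters of a T-box site, found in 11.8% of promoters, was in none of the 3 on either strand. A match of letters is a description of the sequence and not a bound site.

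Hamp (chromosome 7, 30942368 to 30944032, minus strand) read 11.5, 17.98, 11.9, 14.4 and 26.4 in left libraries 1 to 5 and 898, 932, 802, 1169 and 1381 in right libraries 1 to 5. Hamp2 (chromosome 7, 30922372 to 30924681, minus strand) read 0, 0, 0, 4.81 and 5.03 in left libraries 1 to 5 and 82.6, 114, 80.3, 105 and 110 in right libraries 1 to 5. Neither overlapped between the atria. The differences were -5.93, -5.61 and -5.17 for Hamp and -5.59, -5.04 and -4.43 for Hamp2. Because the copies are related, how reads were split between them is uncertain.

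Of 17 genes of hepcidin and iron handling 15 were tested. In all 3 fits 3 were higher in the left and 2, the hepcidins, in the right atrium, beside 9.34% and 12.4% of all genes. The median over the 15 was -0.29, -0.10 and 0.02. The 3 left genes belong to iron uptake, iron export and iron sensing. Tfrc, the transferrin receptor, read 5042, 7573, 12929, 12943 and 12161 in left and 987, 1124, 1550, 1674 and 1682 in right libraries 1 to 5, so that library 1 was lowest on both sides and the groups did not overlap. Its differences were 2.79, 0.75 and 1.03. Slc40a1, ferroportin itself, was at 887 ± 241 against 225 ± 66.0, with differences of 1.98, 0.90 and 0.69. Ireb2, an iron-sensing regulator of mRNA, had differences of 2.51, 0.33 and 0.62.

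The 15 largest differences on each side, among genes without overlap whose higher atrium had a mean of 50 or more, passing over Bmp10, predicted genes and genes at 0 throughout 1 table, were called in all 3 fits without exception, and 11 of the left and 14 of the right genes were at least 4-fold apart in each fit. On the left Vamp7-ps, a processed pseudogene on chromosome 2, stood first at 642, 1019, 782, 1363 and 1167 in libraries 1 to 5 against 0, 0, 0.86, 0 and 0 on the right. A processed pseudogene shares its sequence with the parent gene, so which of them the reads came from is uncertain and may depend on how the 2 tables were counted. It had differences of 9.73, 8.45 and 8.86.

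Cngb3, the beta subunit of a cyclic nucleotide-gated channel best known from cone photoreceptors, read 87.9, 273, 172, 361 and 211 in left libraries 1 to 5 and 5.80, 2.51, 6.05, 3.68 and 1.32 in right libraries 1 to 5. Timp4, an inhibitor of matrix metalloproteinases that is abundant in heart, read 86.8, 115, 127, 163 and 130 in left libraries 1 to 5 and 2.58, 6.27, 13.8, 2.95 and 0 in right libraries 1 to 5. Phlda1, an immediate response gene with a pleckstrin homology-like domain, read 75.3, 79.4, 71.1, 135 and 88.1 in left libraries 1 to 5 and 7.09, 5.02, 7.77, 2.95 and 5.27 in right libraries 1 to 5. The 3 came from genes chosen for having no overlap between the atria. Their differences were 5.48, 3.52 and 3.84 for Cngb3, 4.83, 4.48 and 4.61 for Timp4 and 3.79, 6.44 and 4.79 for Phlda1. The Phlda1 value was thus larger with the GC trends removed, and its exons have a GC content of 57.9%.

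Among the other left genes, Ccl11, the chemokine eotaxin that draws eosinophils, was at 105 ± 49.5 against 2.52 ± 1.37, and Siglech, a receptor of plasmacytoid dendritic cells and some resident macrophages, at 53.5 ± 12.2 against 0.92 ± 0.98. The membrane peptidases Mme, neprilysin, which degrades natriuretic peptides, and Trhde, which degrades thyrotropin-releasing hormone, had smallest differences over the fits of 2.29 and 2.38. Mmrn1, multimerin, an extracellular protein of endothelium, had 4.29, 2.71 and 2.79. The rest were Spock3, a matrix proteoglycan, Sytl5, a vesicle traffic protein, Mettl21e, a methyltransferase of skeletal muscle, Necab1, a calcium-binding protein of neurons, Aspa, aspartoacylase, and Zfp979, a zinc finger gene. Their uncorrected differences lay between 3.74, for Zfp979, and 4.52, for Spock3, and those of Zfp979 with the trends removed were 1.31 and 1.24.

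On the right Cd207, langerin, a lectin of Langerhans cells and of other myeloid cells, read 5.23, 4.49, 2.37, 9.62 and 13.8 in left libraries 1 to 5 and 804, 1205, 1243, 904 and 879 in right libraries 1 to 5. Ptgds, a prostaglandin D2 synthase, read 10.5, 33.0, 11.9, 50.5 and 15.1 in left libraries 1 to 5 and 1267, 1876, 1429, 2102 and 1193 in right libraries 1 to 5. Adm, the vasodilator adrenomedullin, a gene of the atrial chamber list, read 87.9, 59.9, 62.8, 33.7 and 57.9 in left libraries 1 to 5 and 1627, 1695, 1646, 2180 and 2439 in right libraries 1 to 5. All right libraries of these genes were above all left ones by more than 10 times. The differences were -7.12, -7.60 and -6.94 for Cd207, -6.19, -3.95 and -3.59 for Ptgds and -5.01, -4.10 and -4.88 for Adm.

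Other secreted or signalling genes of the right atrium were A2m, a plasma protease inhibitor, at 1.996 ± 2.61 against 143 ± 55.7, and Alox8, a lipoxygenase, at 1.68 ± 2.73 against 159 ± 31.4. Gcgr, the glucagon receptor, was at 0.96 ± 2.15 against 68.1 ± 10.9 and had 0 reads in 4 of 5 left libraries. Gucy2e, a membrane guanylyl cyclase best known from retina, was at 0.67 ± 0.96 against 52.9 ± 10.2. Dbh, the enzyme that makes noradrenaline from dopamine, was at 12.1 ± 8.20 against 483 ± 144, with differences of -5.43, -3.44 and -3.04. Dbh was the only member of the 7 tested genes of the neuronal and glial list that was right in all 3 fits. In the same fits 1 other was left, and of all genes 12.4% were right and 9.34% left. Gsg1l, an auxiliary subunit of glutamate receptors, had -5.54, -3.14 and -3.51. Atoh8, a basic helix-loop-helix factor that in liver takes part in hepcidin control, had -5.07, -1.85 and -1.57. Atp6v0c-ps2, a processed pseudogene, Zfp524 and Rpusd1 had left means of 0.96, 3.28 and 1.85 and right means of 65.1, 102 and 77.8. With Hamp, Hamp2 and Cacna1h, given above, these genes completed the 15, of which Adm was not one. As with Vamp7-ps, reads of Atp6v0c-ps2 are uncertain.

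**Figure D3:**
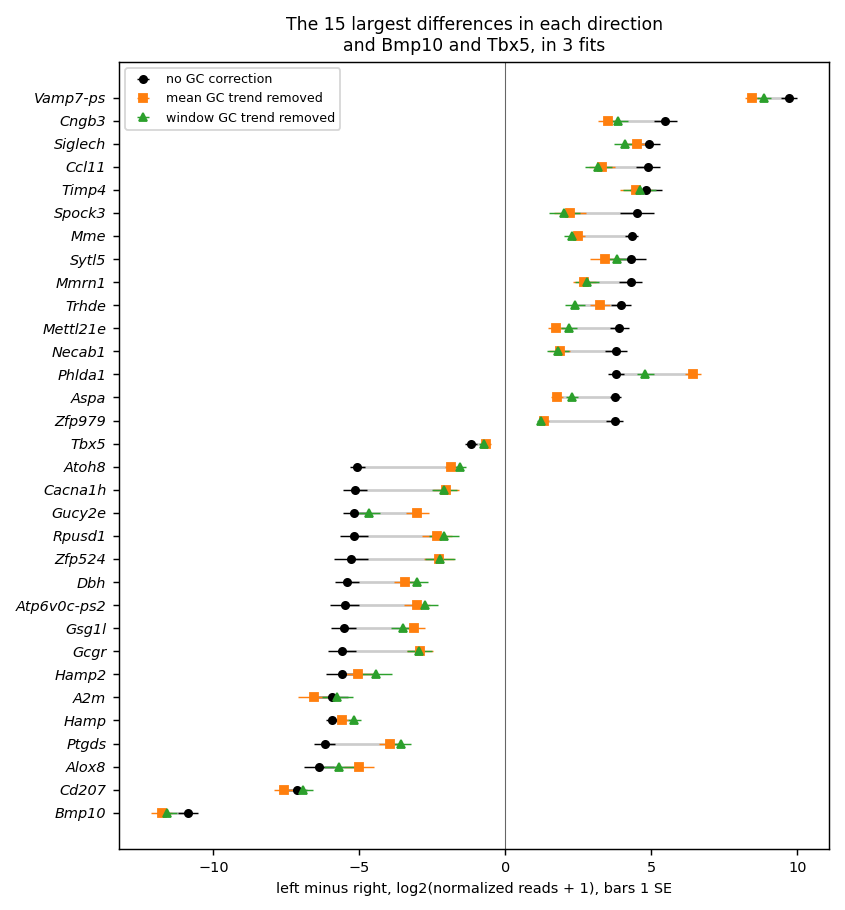
Left minus right difference, log2(normalized reads + 1), with bars of 1 SE, for the 15 largest differences on each side and for Bmp10 and Tbx5, in the uncorrected fit (black) and with the mean GC (orange) or window GC trend (green) removed. All stay on their side of 0. Most move toward 0 with the correction, as Atoh8 does from -5.07 to -1.85 and -1.57, whereas Bmp10, Cd207, Hamp and Timp4 move little and Phlda1 rises from 3.79 to 6.44 and 4.79.

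A few genes had reads in 1 atrium only. Clec4f, a lectin known from liver macrophages, had 0 reads in all left libraries and read 31.6, 65.3, 59.6, 40.5 and 63.2 in right libraries 1 to 5. Its right mean was at least 63.8-fold higher than 3 reads over the left group would give. In the other direction, mt-Co3, a subunit gene of cytochrome c oxidase in mitochondrial DNA, had 0 reads in all right libraries and 83.2 ± 36.9 normalized reads on the left, at least 199-fold higher by the same floor. Heart muscle of both atria uses this gene, so its 0 and the fold are given only as what the tables list. Its left level was small beside the 9 tested mitochondrial protein-coding genes, which summed to 1279426 to 3261983 in left libraries. The genes mt-Co2, mt-Nd3 and mt-Atp8, too low to be tested, also had right means of 0, with left means of 18.55, 10.38 and 1.88.

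Cd207, Clec4f and Vsig4, a complement receptor of resident macrophages, belong to myeloid cells, and so the macrophage markers were read beside them. All 22 listed markers were tested. In all 3 fits 12 were right and 0 left, beside 12.4% and 9.34% of all genes, and the median over the 22 was -1.43, -1.05 and -0.89. Their summed level was 5539 to 7540 in the left and 9905 to 14172 in the right libraries. Csf1r, the receptor for the growth factor that macrophages need, read 319, 136, 205, 171 and 182 in left libraries 1 to 5 and 1536, 1649, 1927, 1361 and 1561 in right libraries 1 to 5. Left library 1 was the highest of its group and still far under every right library. Its differences were -3.03, -1.49 and -1.29. The complement genes C1qa and C1qb had differences of -4.02, -1.03 and -0.88 and of -4.27, -1.75 and -1.48, and Cd14, the endotoxin co-receptor, had -3.26, -2.03 and -1.70. Vsig4, at 29.0 ± 15.6 against 597 ± 82.9, had larger differences of -4.44, -5.50 and -5.12. Whether more macrophages or more RNA of these genes per macrophage lay behind the levels was not tested.

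Sarcomere and glycolysis genes were mostly called right without correction, and fewer held in all 3 fits. Of 47 sarcomere genes tested 35 were called right and 5 left uncorrected, beside 43.1% and 40.4% of all genes, and 16 right and 1 left in all 3 fits, beside 12.4% and 9.34%, with medians of -2.01, -0.58 and -0.31. Myh7, the slow beta myosin heavy chain, read 1545, 2327, 1911, 3604 and 2061 in left and 24590, 25967, 23750, 33418 and 28387 in right libraries 1 to 5. The right libraries were over 6 times the highest left one, and the differences were -3.62, -1.90 and -1.39. Mybpc3, the cardiac myosin-binding protein C, and Actn2, the actinin of the Z-disc, were called right in each fit, but their values with the window GC trend removed were -0.37 and -0.52 against -2.79 and -2.44 uncorrected. The genes Myh6, Myl4 and Myl7 were called right uncorrected, at -2.80, -2.81 and -2.38. They were not called with the window GC trend removed, at -0.39, -0.38 and -0.13, whereas Sln was right in all 3 fits, at -1.17, -1.80 and -1.72.

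Skeletal muscle markers stood beside these. Of 12 listed genes 5 were tested. In all 3 fits 3 were right and 0 left, beside 12.4% and 9.34% of all genes. With either GC trend removed 1 was called left and 3 right. The summed level of the 5 was 472 to 1854 in left and 8504 to 13373 in right libraries. Ckm, muscle creatine kinase, which heart muscle also makes in quantity, carried most of that sum, at 833 ± 554 against 10445 ± 2269, with differences of -3.82, -1.60 and -2.64. Left library 4 was highest of its group at 1796. The part of skeletal muscle tissue in the sarcomere counts was not tested.

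Glucose uptake and glycolysis had 26 tested genes, of which 21 were called right and 4 left uncorrected, beside 43.1% and 40.4% of all genes. Their median GC content was 54.2%, and of all genes between 52.2% and 54.5% GC, 78.5% were called right uncorrected. In all 3 fits 9 of the 26 were right and 0 left, beside 12.4% and 9.34% of all genes. The medians were -2.10, -0.61 and -0.32. Gpi1, glucose-6-phosphate isomerase, was at 854 ± 64.9 against 5047 ± 563, with differences of -2.56, -0.98 and -1.25, and Pdk2, a kinase that restrains pyruvate oxidation, had -3.04, -0.64 and -0.62. The 41 genes of fatty acid oxidation and the citrate cycle split 9 left to 7 right in all 3 fits, and the 47 nuclear genes of the respiratory chain 6 left to 11 right, beside 9.34% left and 12.4% right of all genes. Uncorrected, 15 of the former were called left and 21 right, and 18 and 27 of the latter, beside 40.4% and 43.1% of all genes. The protein-coding genes of mitochondrial DNA went the other way. All 9 tested were called left uncorrected, beside 40.4% of all genes, with medians of 2.22, -0.15 and 0.30, and in all 3 fits 2 were left and 0 right. Those 2 were mt-Co3 and mt-Atp6, which both read 0 in every right library.

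**Figure D4:**
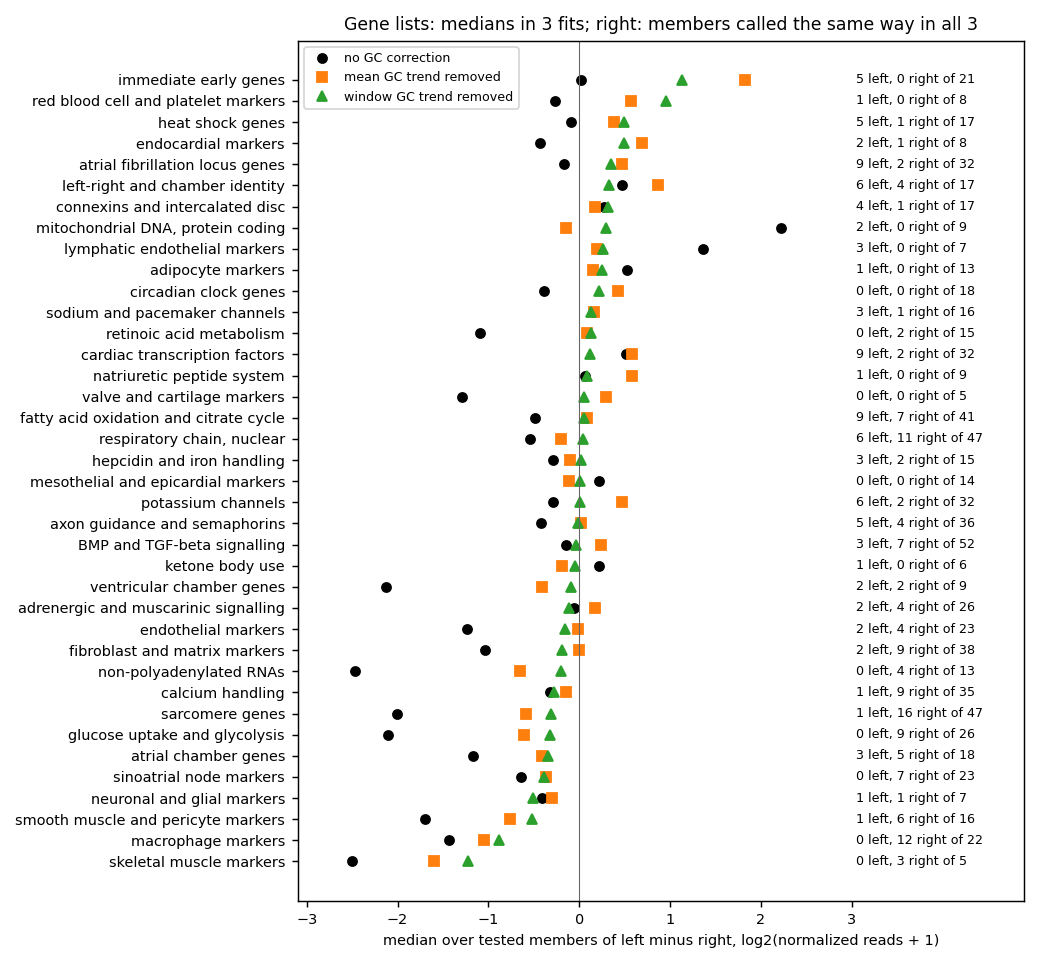
Median over the tested members of each gene list of the left minus right difference, log2(normalized reads + 1), uncorrected (black) and with the mean GC (orange) or window GC trend (green) removed, for lists with at least 5 tested members. The text at the right gives how many members were called left and right in all 3 fits. Uncorrected medians run from -2.499 for skeletal muscle markers to 2.22 for mitochondrial genes, and with the window GC trend removed from -1.23 for skeletal muscle markers to 1.14 for immediate early genes.

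Channels and calcium handling gave genes on both sides. Of 35 calcium handling genes 9 were right and 1 left in all 3 fits, beside 12.4% and 9.34% of all genes. The left gene was Pln, whose product phospholamban restrains calcium uptake into the sarcoplasmic reticulum. Pln read 112604, 224085, 161028, 370915 and 277528 in left libraries 1 to 5 and 26127, 27580, 25468, 30185 and 36341 in right libraries 1 to 5. The lowest left library was over 3 times the highest right one. Its differences were 2.87, 1.18 and 0.97.

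Of 32 potassium channel genes 6 were left and 2 right in all 3 fits, beside 9.34% and 12.4% of all genes. Kcnj3, a subunit of the acetylcholine-gated potassium channel of the atria, was at 55183 ± 22384 against 10844 ± 1625, with differences of 2.26, 0.87 and 0.76. Kcnn3, a calcium-activated potassium channel of small conductance, was at 53.5 ± 21.4 against 7.97 ± 3.12, with differences of 2.58, 2.13 and 4.50. Abcc8, the sulfonylurea receptor of the atrial ATP-sensitive potassium channel, went the other way, at 344 ± 78.1 against 3807 ± 332, with differences of -3.49, -1.07 and -0.97. Fgf12, a fibroblast growth factor homologue that binds cardiac sodium channels, was left in each fit, at 2.23, 0.87 and 0.55.

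At cell junctions Dsc2, the desmosomal cadherin desmocollin, was left, with differences of 2.20, 0.68 and 0.75, and Gja3, the gene of connexin 46, was right, at 31.5 ± 12.5 against 319 ± 80.8 and with differences of -3.33, -1.50 and -2.89. Of 17 tested genes of connexins and the intercalated disc 4 were left and 1 right in all 3 fits, beside the same shares.

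Of 32 genes at loci that human genetics links to atrial fibrillation 9 were left and 2 right in all 3 fits. Phlda1 and Kcnn3 were among the left and Tbx5 and Myh7 the right ones. Cav2, a caveolin of membrane pits, was also left, at 6183 ± 1631 against 761 ± 177, with differences of 3.02, 1.23 and 0.44. The counts stand beside 9.34% left and 12.4% right of all genes. The list shares members with the identity list, Tbx5 among them, and its counts are not independent of it.

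Cardiac transcription factors counted 9 left and 2 right of 32 in all 3 fits, beside 9.34% and 12.4% of all genes. Prrx1, a homeobox factor of mesenchyme, was at 2249 ± 505 against 512 ± 66.2, with differences of 2.11, 0.72 and 0.74. Irx5, an Iroquois homeobox factor that shapes repolarization in the ventricle, read 51.3, 83.9, 60.5, 74.5 and 50.3 in left libraries 1 to 5 and 24.5, 16.9, 17.3, 11.04 and 12.5 in right libraries 1 to 5. The groups did not overlap, and its differences rose from 1.92 to 5.29 and 5.82 with the trends removed. Prox1, a homeobox factor of lymphatic endothelium and of heart muscle, was left at 1.37, 1.15 and 0.26. Lymphatic markers counted 3 left, among them Prox1 and Mmrn1, and 0 right of 7 in all 3 fits, beside 9.34% and 12.4% of all genes. The medians over the 7 were 1.37, 0.20 and 0.26. Their summed level, without GC correction, was 5858 to 12006 in left and 2954 to 3401 in right libraries.

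Genes of BMP and TGF-beta signalling counted 3 left and 7 right of 52 in all 3 fits, which is under the 9.34% of all genes on the left and near the 12.4% on the right. Bmp10 was the ligand of the largest difference. Eng, endoglin, a co-receptor of endothelium for Bmp10 and its relative Bmp9, was at 307 ± 98.2 against 3533 ± 668, with differences of -3.56, -0.99 and -0.91. Ltbp4, a matrix protein that holds latent TGF-beta, was at 252.2 ± 101 against 6423 ± 1564, with differences of -4.73, -1.30 and -1.10. Of 23 endothelial markers 2 were left and 4 right in all 3 fits, beside 9.34% and 12.4% of all genes. Their medians were -1.24, -0.01 and -0.16. Their summed level, without GC correction, was 18648 to 31084 in left and 34097 to 49714 in right libraries. The part of endothelium in the level of Eng was not tested.

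Smooth muscle and pericyte markers counted 1 left and 6 right of 16 in all 3 fits, and fibroblast and matrix markers 2 left and 9 right of 38, beside 9.34% left and 12.4% right of all genes. The summed level of the fibroblast list overlapped between the atria, at 98017 to 138550 against 98486 to 142259, and so did that of the smooth muscle list, at 18874 to 35402 against 27092 to 35076. None of the 14 mesothelial, 5 valve or 18 circadian clock genes tested was called the same way in all 3 fits, although 10, 4 and 13 of them were called uncorrected by limma, where 83.5% of all genes were.

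Immediate early genes, which respond within minutes to stimuli that include tissue handling, were left in all 3 fits for 5 of 21 and right for 0, beside 9.34% and 12.4% of all genes, with medians of 0.02, 1.82 and 1.14. Fos read 718, 1456, 337, 959 and 1384 in left libraries 1 to 5 and 299, 247, 169, 110 and 210 in right libraries 1 to 5, with no overlap. Nr4a3, an orphan nuclear receptor, read 469, 915, 1169, 1399 and 4304 in left libraries 1 to 5 and 110, 132, 95.9, 95.7 and 168 in right libraries 1 to 5. All left libraries were above all right ones, and left library 5 was far above the other left ones. The differences were 2.13, 3.65 and 2.17 for Fos and 3.40, 3.43 and 2.33 for Nr4a3. Heat shock genes counted 5 left and 1 right of 17 in all 3 fits, beside the same shares of all genes. Hspe1, a mitochondrial chaperonin, was left at 2.27, 1.96 and 2.12, and Hspb8, a small heat shock protein of muscle, right at -1.72, -0.74 and -0.45. Phlda1 is known as a response gene too, and whether handling of the tissue had a part in these levels was not tested.

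Last, the difference between the atria was set against that of the mutants, with all 20 libraries normalized together. Of 13824 genes tested, 11 (0.0796%) had a left minus right difference that differed between genotypes, 4 (0.0289%) more to the left and 7 (0.0506%) more to the right in mutants, by limma, while 1120 genes had an unadjusted p under 0.05. For 6 of the 11 the call was made in all 3 fits. Control libraries enter both this comparison and the one between control atria. The calls rest on few libraries: with control right library 1 or 3, control left 2 or 3, mutant right 3 or 5 or mutant left 5 left out on its own, 0 genes were called in either direction.

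Bmp10 and Tbx5 kept their sides in mutants. Bmp10 was at 17.3 ± 14.6 in mutant left and 21617 ± 2745 in mutant right libraries, and the difference between genotypes was 0.16 ± 0.70 (adjusted p 0.927). For Tbx5 it was 0.06 ± 0.23 (adjusted p 0.916), and reads of the normal and the altered allele were counted together.

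Nfasc, Mrvi1, Eya1, Tmtc2, Fam107b and 1110012L19Rik are the 6 called in all 3 fits. With the library number as a block within genotype, 1 gene of each sign was called. Of these 6 Mrvi1 alone kept its call under that block, and the other 5 had adjusted p-values of 0.0502 for 1110012L19Rik and 0.153 to 0.163 for the rest. Over the 11 genes the uncorrected adjusted p lay between 0.0225 and 0.0494. The right libraries of Phlda1 were at 3.11 to 8.28 in controls and at 13.2 to 28.7 in mutants, and its left minus right difference went from 3.80 to 1.75. Nfasc, neurofascin, an adhesion protein of axons, read 23.4, 17.4, 15.7, 49.8 and 22.8 in control right and 219, 249, 231, 217 and 308 in mutant right libraries 1 to 5, without overlap, and was at most 6.04 in any left library. Its difference went from -3.04 to -5.66. That change was called neither by edgeR (adjusted p 0.394) nor by DESeq2 (adjusted p 0.171), nor with a pseudocount of 0.5 or either other filter. Mrvi1, which acts with inositol trisphosphate receptors on calcium release, went from -2.37 to -0.79. Its mean was lower in mutants on both sides, at 1856 in control and 188 in mutant right libraries and at 368 and 109 in left ones. Eya1, a transcriptional cofactor and phosphatase, was at 128 ± 23.2 in control left and at 52.7 in mutant left libraries, and its difference went from -0.67 to -2.04.

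Aqp4, a water channel, was left in controls at 1.4999 and at -0.66 in mutants, with a mean in the left of 444 in controls and 69.9 in mutants. Tmtc2, a protein of the endoplasmic reticulum, and Fam107b had differences of 1.15 and 1.20 in controls and of -0.01 and 0.01 in mutants. Kif1a, a motor of axonal transport, and Map1a, a microtubule protein of neurons, were right in controls, at -4.43 and -1.69, and less so in mutants, at -3.16 and -0.76. The transcript 1110012L19Rik, which has no named function here, went from -0.998 to 0.806.

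**Figure D5:**
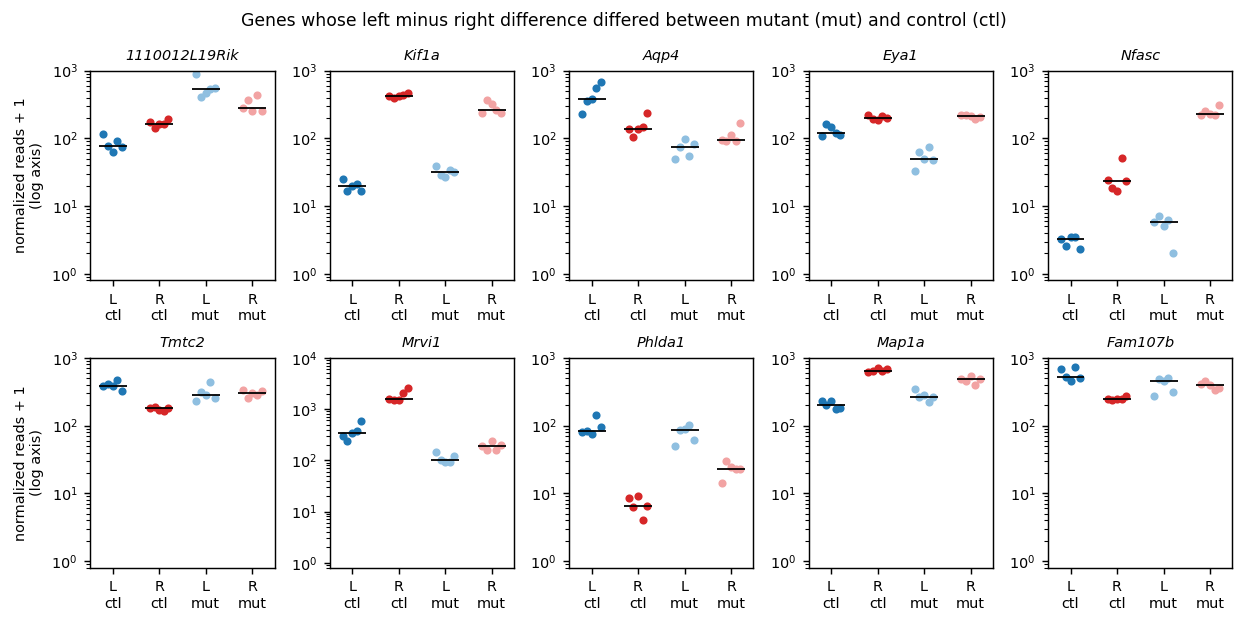
Normalized reads plus 1 on a log axis, normalized over all 20 libraries, for 10 genes whose left minus right difference differed between genotypes, with a point per library and the line at the median; L and R are left and right atrium, ctl is control and mut is mutant. Phlda1 lies at 3.11 to 8.28 reads in control right and 13.2 to 28.7 in mutant right libraries, and Nfasc at 15.7 to 49.8 and 217 to 308.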

How the data were processed

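Whole left and right atria of 5 control and 5 heterozygous mutant libraries each were sequenced. Per the labels and the study, libraries were made with a TruSeq preparation from 300 ng of RNA, aligned with STAR to mm10 and normalized with DESeq2, with versions and read counter not given in the sources used here. The authors deposited 1 table per atrium whose values are a signal, gene counts divided by a size factor set within that table, and further sheets with their own fold changes and p-values between genotypes, which were not used. Each column was divided by its smallest nonzero value. This recovered whole reads, 100% of values within 0.01 reads. In mutant left library 3 the step lies so close to 1 that the check has little power. The tables were joined on gene ID (41128 left genes and 33446 right genes, 33446 shared), and mt-Rnr1 and mt-Rnr2 were dropped. Entries without values (6275) and repeats (1203) of the right atrium were removed.

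Median-ratio size factors were set over the 10 control libraries (for the comparison of genotypes, over all 20). Genes with a mean of at least 10 were tested with limma 3.58.1 in R 4.3.3 on log2(normalized reads + 1), with a mean-variance trend, no covariate and Benjamini-Hochberg adjustment at 0.05. Fold changes on this scale understate those of low genes. GC trends were removed per library by lowess with a span of 0.3, from exon GC content in GENCODE M21 (99.6% of tested genes). Window GC averaged 200-base windows, at steps of 10 bases, with a weight of 0.1 per percent GC toward AT-rich windows. For library properties the test was an exact permutation of the 10 libraries, two-sided. The scripts were tested on simulated data.

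Bmp10 and Tbx5 came first, then the 15 largest called differences per side without overlap and with a mean of at least 50 in the higher atrium, passing over predicted genes and genes at 0 throughout 1 table, and up to 4 members of lowest adjusted p from each of 41 lists, all members of the identity, sinoatrial and iron lists, and up to 5 called genotype differences of each sign. Clec4f, Vsig4, Kcnn3, Fos, Csf1r, Irx5, Kcnj3, Tmtc2 and Fam107b lie outside this rule, chosen with their values in view. Some genes that the rule names are not reported here. Members and lists were chosen with earlier results of these data known.

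Same-numbered control left and right libraries deviated together in all 5 pairs, with correlations of 0.23 to 0.33 across genes. Control pairs of unlike number ran from -0.40, for left 3 with right 5, to 0.41, for left 4 with right 5. Which atria share an animal is thus settled neither by the data nor by the labels. Same-numbered mutant pairs gave -0.05 to 0.18. No 2 libraries of a group agreed within sampling noise. Alternatives were pseudocounts of 0.5 and 5, other filters and scalings, edgeR 4.0.16, DESeq2 1.42.0, the replicate block, GC and length trends, mitochondrial genes and leaving out each library.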

Additional observations from a re-analysis of the deposited data

Results flagged for a closer look

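Single libraries stood apart from the other 4 of their group by Dixon's criterion in 13 of 165 sets of values, 7.88%, where chance gives about 1 in 20, and 6 of the 13 were left library 4, the one with the most mitochondrial ribosomal RNA. Left library 4 was highest for Ckm (1795.81 normalized reads, the others 428.94 to 756.57), Mybpc3 (5586.97), Nkx2-5 (112.99), Phlda1 (134.63), Spock3 (278.87) and Zfp524 (12.02). Left library 5 was highest for Hspb8 (2635.34) and Nr4a3 (4304.14) and in depth, at 24.779 M reads. On the right, library 1 was lowest for Actn2 (18972.03) and highest for Trhde (14.19), library 4 highest for Nfasc (47.12) and library 5 for Rpusd1 (92.85).

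The left minus right difference differed between mutant and control libraries for 11 genes by limma. Mutant minus control, the values were, for 10 of them, 1.80 for 1110012L19Rik, 1.58 for Mrvi1, 1.27 for Kif1a and 0.93 for Map1a, and -2.62 for Nfasc, -2.16 for Aqp4, -2.05 for Phlda1, -1.37 for Eya1, -1.19 for Fam107b and -1.16 for Tmtc2.

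The left table held 7682 genes that the right table did not, with 0.225% to 0.372% of the reads of a left library. They entered no comparison.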

How the results depend on the processing

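Between the control atria, the counts called left and right stayed within 1.5 times of 5529 and 5903 under other pseudocounts, filters, scalings and tools and with the replicate block (5710 and 6040). They fell with the window GC trend removed to 3128 and 3075, and the right count to 3587 with the mean GC trend, 3607 with GC and length trends, and 3616 with the window GC trend and the block. Leaving out each library gave 5399 to 5606 left and 5730 to 5985 right genes. At least 4-fold differences in all 3 fits numbered 35 left and 62 right with a pseudocount of 5, and 56 to 62 left and 103 to 121 right without single libraries. The named genes kept their direction under every alternative run, except for these. With the mean GC trend removed, with or without the block, Hand2 was at 2.02, Meis1 at -0.62, Tbx3 at 0.86 and Lefty1 at 1.55. With GC and length trends removed they were at 1.98, -0.56, 0.86 and 1.53. With the window GC trend removed, with or without the block, Hand2 was at 0.69, Meis1 at -0.87, Tbx3 at 0.33, Lefty1 at 1.42, Nkx2-5 at 0.0318 and Shox2 at -0.24. Quantile normalization put Tbx3 at 0.42. Among the 88 named genes the block changed the calls of Tbx3 and Shox2 alone in the uncorrected fit of the control atria. Lefty1 lost its call without left library 2 (values from -1.66 to -0.94 in the 3 runs in which its mean stayed over 10) or 4. It also lost its call by limma with no filter (adjusted p 0.0549), by edgeR (adjusted p 0.0820) and by DESeq2 (adjusted p 0.0815). By limma, Hand2 lost its call with quantile normalization (adjusted p 0.519) and Meis1 with total reads as scaling (adjusted p 0.515).

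The genotype difference (4 positive, 7 negative) gave 4 negative genes with a pseudocount of 0.5, 8 positive with 5, 3 negative with either other filter (none, or a mean from 50 up), 24 and 17 with DESeq2, 2 positive with the mean GC trend removed, 2 and 4 with the window GC trend removed, and 1 and 1 with a block within genotype. Single libraries left out gave 0 to 6 positive and 0 to 9 negative genes. For library properties, such runs gave left minus right differences of -3.27 to -1.14 M reads, 18.7 to 24.4 points of ribosomal RNA, 3.95 to 4.25 points of other mitochondrial reads, -2065.2 to -1431.7 genes and -4.59 to -4.24 points of GC content. The causes of these changes were not tested. Genes with means near 10 reads are the least precise, and left library 4 was the shallowest, with 10.2 M reads outside the ribosomal RNA.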
